A study of Homo sapiens with 6 samples.

Results

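The 10 genes described here encode the enzymes that build phosphatidylcholine and phosphatidylethanolamine, together with a choline transporter: SLC44A1, CHKA, CHKB, PCYT1A, PCYT1B, CHPT1, CEPT1, ETNK1, PCYT2 and PEMT. They were chosen by symbol, each matched to 1 Ensembl identifier among the 79302 genes of the deposited count table. The rule names the genes and sets no threshold on their values, but they were picked with earlier results of these data known. Of the 10 genes, 9 had enough reads to be tested, and PCYT1B did not. The data are RNA-seq of the human colorectal cancer line HCT116, with 3 libraries of cells carrying a control shRNA (shCtrl) and 3 of cells carrying an shRNA against GDPD5 (shGDPD5). The text of the study describes both groups as radioresistant HCT116 cells collected 6 h after a dose of 4 Gy, whereas the sample labels give only the cell line and the shRNA. All 6 libraries are of 1 cell line. Of the 2 GDPD5 shRNA sequences that the study lists, the one used for these libraries is not named in the sources used here. Whether each library was grown as its own culture is likewise not stated, and the p-values below therefore reflect only how these libraries scatter, which may be technical. Values are CPM, the reads of a gene relative to all reads of its library (counts per 1000000), after scaling by the TMM method, and changes are log2 fold changes of shGDPD5 relative to shCtrl.

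Phosphatidylcholine and phosphatidylethanolamine are the most abundant phospholipids of mammalian membranes, and most cells make them by the parallel branches of the Kennedy pathway. In each branch a kinase phosphorylates the base (choline or ethanolamine), a cytidylyl transferase activates it with CTP, and a phosphotransferase joins it to diacylglycerol. The cytidylyl transferase step is regarded as rate-limiting in the choline branch, and PEMT offers another route by methylating phosphatidylethanolamine to phosphatidylcholine, an activity best known in liver. Tumour cells, those of the colon included, are known for raised choline kinase and phosphocholine. GDPD5, the targeted gene, encodes a glycerophosphodiesterase that can release choline from glycerophosphocholine and so lies upstream of the choline branch.

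RefSeq promoter windows (GRCh38.p14) were found for 9 of the 10 genes, 14 windows in all, for every gene but CHKA. The 250 bases before a RefSeq start of transcription are printed below, 5′ to 3′ on the strand of the gene. They are given for the start listed first of 4 of the genes whose transcripts differed between the groups. Of these, 2 were higher (PCYT1A and ETNK1) and 2 were lower (PCYT2 and PEMT). RefSeq starts can differ from the gene positions of GENCODE release 29 given further below. By those positions, most of the PCYT1A window and parts of the ETNK1 and PCYT2 windows lie inside the gene. Capitals mark matches on either strand to the GC box GGGCGG, the CCAAT box CCAAT, the E-box CACGTG or the E2F sites TTTCCCGC, TTTCGCGC, TTTGCCGC and TTTGGCGC.
PCYT1A (chr3:196287727-196287976, minus strand): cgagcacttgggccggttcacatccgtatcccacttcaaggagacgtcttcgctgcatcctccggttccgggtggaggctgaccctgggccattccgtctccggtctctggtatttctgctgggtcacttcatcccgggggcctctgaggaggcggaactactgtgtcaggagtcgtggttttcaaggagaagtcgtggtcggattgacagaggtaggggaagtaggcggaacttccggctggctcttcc
ETNK1 (chr12:22624921-22625170, plus strand): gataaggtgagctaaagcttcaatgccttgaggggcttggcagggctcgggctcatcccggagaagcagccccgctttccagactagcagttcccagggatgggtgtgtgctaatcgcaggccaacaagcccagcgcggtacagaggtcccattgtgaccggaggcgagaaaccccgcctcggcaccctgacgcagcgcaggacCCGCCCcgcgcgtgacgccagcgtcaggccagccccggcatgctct
PCYT2 (chr17:81911400-81911649, minus strand): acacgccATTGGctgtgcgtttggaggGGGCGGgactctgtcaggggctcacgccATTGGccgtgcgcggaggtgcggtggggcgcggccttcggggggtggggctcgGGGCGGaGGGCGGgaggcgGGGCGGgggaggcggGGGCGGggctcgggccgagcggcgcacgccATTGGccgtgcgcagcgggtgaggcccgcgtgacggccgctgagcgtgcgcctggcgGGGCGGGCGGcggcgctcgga
PEMT (chr17:17591709-17591958, minus strand): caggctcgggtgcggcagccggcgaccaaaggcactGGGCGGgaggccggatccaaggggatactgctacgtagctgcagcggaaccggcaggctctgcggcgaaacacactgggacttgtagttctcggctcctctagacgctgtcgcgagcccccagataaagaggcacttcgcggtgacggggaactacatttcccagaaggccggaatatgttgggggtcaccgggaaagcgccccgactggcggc
The PCYT2 window held 7 GC boxes, the last 2 of which overlap, and 3 CCAAT boxes, all of these read on the opposite strand as ATTGG. The printed ETNK1 and PEMT windows each held 1 GC box, and the PCYT1A window held no match to these motifs. PCYT2 and PEMT have further RefSeq starts, of which the windows are not printed. The other PCYT2 window overlaps the printed one and held 3 GC boxes, among them the overlapping 2 counted last in the printed window. Of the 2 other PEMT windows, 1 held 2 GC boxes and an E-box and 1 held no match. Among 35116 RefSeq windows of this length, 42.6% held a GC box, 32.0% a CCAAT box, 6.34% the E-box and 2.79% an E2F site. The GC content of the PCYT2 window was 80.0%, compared to 59.6% for PCYT1A, 65.2% for ETNK1, 64.4% for PEMT and a median of 58.0% over all windows. A match describes the letters of a window and says nothing of whether a factor binds there.

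The libraries held 16715522 to 18510728 estimated counts. GDPD5 itself showed 8.33, 11.6 and 9.75 CPM in shCtrl and 5.44, 5.55 and 5.19 CPM in shGDPD5, with no overlap between the groups. Its level fell by 0.88 on the log2 scale (SE 0.13, adjusted p = 0.000116, edgeR quasi-likelihood test), and the fall lay between -0.99 and -0.75 over all the alternatives. Over all 16755 genes tested, the edgeR test passed an adjusted p of 0.05 for 59.7%. Mitochondrially encoded genes took 8.99% to 9.34% of the reads in shCtrl and 10.05% to 10.7% in shGDPD5. Of 10 colon epithelium markers, 1 (CDX1) was at 0 in every library, 2 others (VIL1 and LGR5) stayed under 20 counts, and the summed level of the list was 3174 to 3613 CPM in shCtrl and 2529 to 2637 CPM in shGDPD5, most of it from the keratins KRT8, KRT18 and KRT19. Of the 7 markers tested, 6 were lower, and KRT20 rose by 1.23 on the log2 scale (SE 0.20, edgeR adjusted p = 0.000203) from a level near 1 CPM. Of 6 fibroblast markers, COL1A2, DCN and LUM were at 0 in every library. The summed fibroblast level was 19.04 to 21.6 CPM in shCtrl and 20.7 to 24.2 CPM in shGDPD5, nearly all of it COL1A1 (at most 417 counts). No leukocyte marker exceeded 5 counts (CD3E was at 0) and no endothelial marker exceeded 18 (CDH5 was at 0). The part of the mitochondrial share and of the lower summed epithelial marker level in the results below was not tested. In bulk RNA, fewer cells of a kind and less RNA per cell cannot be told apart.

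PCYT1A and CHKA, the cytidylyl transferase and a kinase of the choline branch, were higher in the GDPD5-knockdown cells by 46.3% and 36.7%. ETNK1, a kinase of the ethanolamine branch, was higher by 12.5%. PCYT2, the cytidylyl transferase of the ethanolamine branch, and PEMT were lower by 14.6% and 21.7%. The calls of CHKA and PCYT1A held under every alternative, whereas those of ETNK1, PCYT2 and PEMT were lost without shCtrl replicate 3. For SLC44A1, CHKB, CHPT1 and CEPT1 the difference between the groups did not pass the test.

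**Figure D1:**
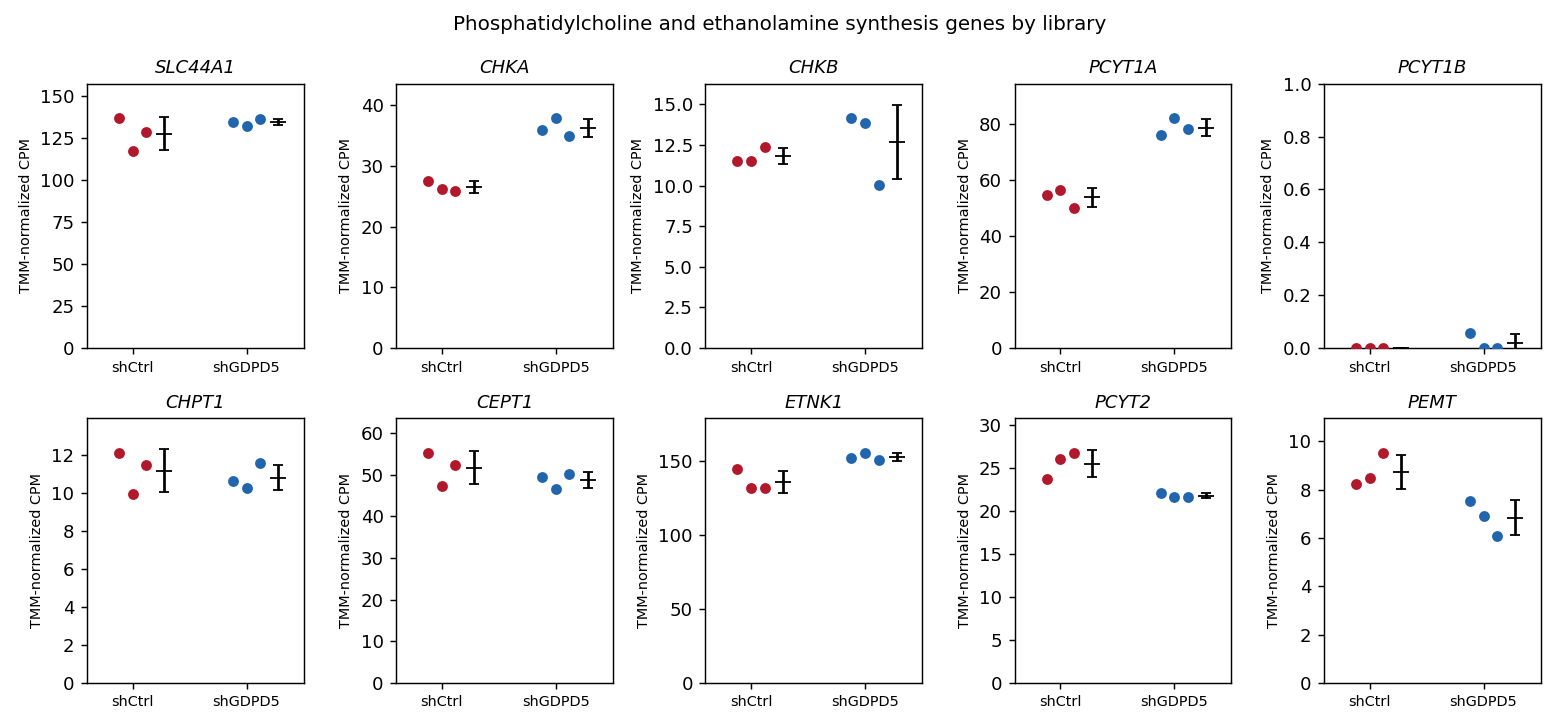
TMM-normalized CPM (vertical axis, each panel from 0) of the 10 synthesis genes in the 3 shCtrl and 3 shGDPD5 libraries, with the mean and SD beside the points. The shGDPD5 libraries lie above all shCtrl libraries for CHKA, PCYT1A and ETNK1 and below them for PCYT2 and PEMT, the groups overlap for CHKB, CHPT1, CEPT1 and SLC44A1, and PCYT1B is at or near 0.

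Choline first has to enter the cell, and SLC44A1 encodes a choline transporter of the plasma membrane and mitochondria. The SLC44A1 transcript (ENSG00000070214) lies at chr9:105244622-105439171 on the plus strand (GENCODE release 29, GRCh38, which is also the source of the positions below). Its level was 136.9, 117.2 and 128.5 CPM in shCtrl and 134.9, 132.4 and 136.1 CPM in shGDPD5. The groups overlapped, since shCtrl replicate 1 was the highest of the 6 libraries. The log2 fold change was 0.08 (SE 0.06, 95% interval -0.05 to 0.20, adjusted p = 0.272 with edgeR), an interval that runs from a change of -3.29% to 14.9%. Without shCtrl replicate 1 the log2 fold change was 0.13 and passed the test (edgeR adjusted p = 0.0209), and without shCtrl replicate 2 it was 0.014 (edgeR adjusted p = 0.853).

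CHKA encodes choline kinase alpha, which phosphorylates choline and is the choline kinase most often linked to tumour growth. The gene (ENSG00000110721) lies at chr11:68052859-68121444 (minus strand). CHKA showed 27.6, 26.2 and 25.8 CPM in shCtrl and 36.0, 37.9 and 35.0 CPM in shGDPD5. Every knockdown library thus lay above every control library, and the gap between the groups was wider than the spread within either of them. The rise was 0.45 on the log2 scale (SE 0.06, 95% interval 0.32 to 0.59, adjusted p = 4.80e-05 with edgeR), and it passed the test under every alternative, from 0.41 to 0.48. An antisense gene (AP002807.1) covers 16.3% of the exon bases of CHKA, and without knowledge of the strand setting its reads cannot be told apart from those of CHKA.

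CHKB encodes choline kinase beta, the paralog of CHKA, whose loss is known to cause a muscular dystrophy. The gene (ENSG00000100288) lies at chr22:50578949-50601455 (minus strand). Its level was 11.5, 11.5 and 12.4 CPM in shCtrl and 14.1, 13.8 and 10.04 CPM in shGDPD5. The knockdown libraries fell on either side of the controls, 2 above all of them and replicate 3 below all of them. The log2 fold change was 0.10 (SE 0.12, 95% interval -0.17 to 0.37, adjusted p = 0.506 with edgeR). It was 0.24 without shGDPD5 replicate 3, 0.016 without shGDPD5 replicate 1 and 0.024 without shGDPD5 replicate 2, and none of these passed the test.

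The CHKB value is uncertain because the read-through gene CHKB-CPT1B shares 72.5% of the exon bases of CHKB on the same strand, and 83.8% of the 50-base words of the longest coding CHKB transcript occur in another gene. CHKB-CPT1B showed 20.4, 21.0 and 20.7 CPM in shCtrl and 19.1, 16.1 and 16.5 CPM in shGDPD5, and fell by 0.27 on the log2 scale (SE 0.08, adjusted p = 0.0142 with edgeR). The 2 genes therefore pointed in opposite directions although most of their exon sequence is shared. With their counts summed, the log2 fold change was -0.12 (SE 0.08, 95% interval -0.29 to 0.05, adjusted p = 0.200 with edgeR), which turns the direction of CHKB and again does not pass the test.

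PCYT1A encodes the alpha isoform of CTP:phosphocholine cytidylyl transferase, the enzyme that makes CDP-choline. The gene (ENSG00000161217) lies at chr3:196214222-196287957 (minus strand). PCYT1A showed 54.7, 56.5 and 50.1 CPM in shCtrl and 76.0, 82.0 and 77.9 CPM in shGDPD5. The lowest knockdown library was well above the highest control library. The rise was 0.55 on the log2 scale (SE 0.06, 95% interval 0.42 to 0.68, adjusted p = 5.81e-06 with edgeR) and passed the test under every alternative, from 0.50 to 0.58. It was the largest change among the 9 genes tested. A gene on the same strand (AC069257.3) shares 4.02% of the PCYT1A exon bases, and SLC51A on the opposite strand overlaps 4.88% of them.

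PCYT1B encodes the beta isoform of the same enzyme, best known from the brain, and lies at chrX:24558087-24672677 (minus strand) (ENSG00000102230). It had 0 counts in all shCtrl libraries and in shGDPD5 replicates 2 and 3, and 1 count in shGDPD5 replicate 1. With counts this low no fold was computed. A count of 0 allows up to 3 counts in a library, which covers counting error only. For the libraries at 0 this is 0.162 to 0.173 CPM, taken on the library total without TMM scaling. At this depth, PCYT1A accounted for all but 1 of the reads that the table gives to the pair.

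The last step of the choline branch is carried out by CHPT1, a cholinephosphotransferase of the Golgi, and by CEPT1, a choline/ethanolaminephosphotransferase that also closes the ethanolamine branch. CHPT1 (ENSG00000111666, chr12:101696947-101744140, plus strand) showed 12.1, 9.93 and 11.5 CPM in shCtrl and 10.6, 10.2 and 11.6 CPM in shGDPD5. CEPT1 (ENSG00000134255, chr1:111139627-111185102, plus strand) showed 55.3, 47.4 and 52.2 CPM in shCtrl and 49.5, 46.5 and 50.3 CPM in shGDPD5. For both genes the knockdown libraries lay largely within the range of the controls. The log2 fold change of CHPT1 was -0.05 (SE 0.10, 95% interval -0.27 to 0.18, adjusted p = 0.720 with edgeR), and with 1 library left out it lay between -0.13 (without shCtrl replicate 2) and 0.011 (without shCtrl replicate 1). The log2 fold change of CEPT1 was -0.08 (SE 0.07, 95% interval -0.23 to 0.06, adjusted p = 0.305 with edgeR), and with 1 library left out it lay between -0.15 (without shCtrl replicate 2) and -0.035 (without shCtrl replicate 1). These intervals leave out changes of the size seen for CHKA and PCYT1A.

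In the ethanolamine branch, ETNK1 encodes an ethanolamine kinase, which makes phosphoethanolamine. The gene (ENSG00000139163) lies at chr12:22625075-22690665 (plus strand). Its level was 144.1, 131.2 and 131.3 CPM in shCtrl and 151.7, 155.2 and 150.2 CPM in shGDPD5. The groups did not overlap, with shCtrl replicate 1 closest to the knockdown libraries. ETNK1 rose by 0.17 on the log2 scale (SE 0.05, 95% interval 0.06 to 0.28, adjusted p = 0.0114 with edgeR). The call was lost without shCtrl replicate 2 (0.14, edgeR adjusted p = 0.0631), without shCtrl replicate 3 (0.14, edgeR adjusted p = 0.0548) and without shGDPD5 replicate 2 (0.15, edgeR adjusted p = 0.0588). ETNK2, a further ethanolamine kinase outside the 10 genes, had a log2 fold change of -0.16 and did not pass (edgeR adjusted p = 0.333).

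PCYT2 encodes CTP:phosphoethanolamine cytidylyl transferase, the counterpart of PCYT1A that makes CDP-ethanolamine. The gene (ENSG00000185813) lies at chr17:81900965-81911464 (minus strand), and the window with 7 GC boxes printed above covers its start. PCYT2 showed 23.7, 26.1 and 26.8 CPM in shCtrl and 22.1, 21.7 and 21.6 CPM in shGDPD5. The knockdown libraries lay close together below all controls, of which replicate 1 was the nearest. PCYT2 fell by 0.23 on the log2 scale (SE 0.07, 95% interval -0.38 to -0.08, adjusted p = 0.0137 with edgeR), and the call was lost without shCtrl replicate 3 (-0.20, edgeR adjusted p = 0.0524). The gene NPB on the opposite strand overlaps 28.1% of the PCYT2 exon bases, and its reads cannot be told apart where counting ignores strand.

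PEMT, which methylates phosphatidylethanolamine with S-adenosylmethionine as the donor, was the least abundant of the 9 tested genes in CPM. The gene (ENSG00000133027) lies at chr17:17505563-17591708 (minus strand). PEMT showed 8.21, 8.47 and 9.52 CPM in shCtrl and 7.54, 6.89 and 6.09 CPM in shGDPD5, from 108 to 165 counts per library. The groups did not overlap, but their nearest libraries were closer to each other than the lowest and highest library of either group. PEMT fell by 0.35 on the log2 scale (SE 0.12, 95% interval -0.61 to -0.09, adjusted p = 0.0218 with edgeR). The call was lost with DESeq2 (adjusted p = 0.0724), with a test of each gene alone on log2(CPM + 1) values (adjusted p = 0.0607), without shCtrl replicate 3 (-0.29, edgeR adjusted p = 0.0817) and without shGDPD5 replicate 3 (-0.28, edgeR adjusted p = 0.0957).

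**Figure D2:**
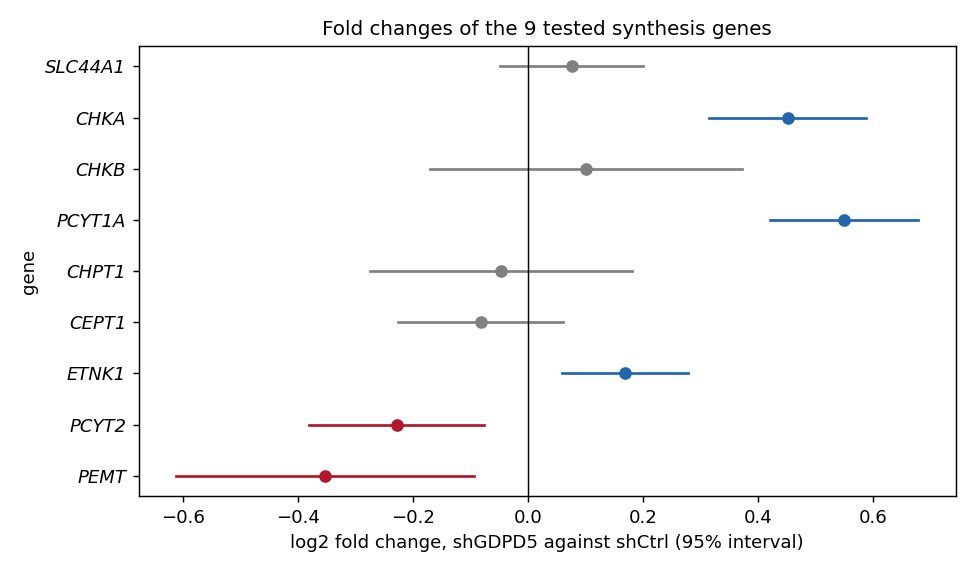
Log2 fold changes of the 9 tested synthesis genes, shGDPD5 against shCtrl (horizontal axis), with 95% intervals from the edgeR fit as bars. The intervals of PCYT1A and CHKA lie farthest above 0, that of ETNK1 just above 0 and those of PCYT2 and PEMT below 0, while the other 4 include 0.

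In the edgeR test at an adjusted p under 0.05, 3 of the 9 tested genes rose and 2 fell, compared to 29.7% of all tested genes higher and 30.1% lower. The share called in either direction was 55.6%, close to the 59.7% over all genes, so the number of calls does not set these genes apart. Without shCtrl replicate 3 the counts were 2 higher and 0 lower, and without shCtrl replicate 1 they were 4 and 2. The CPM of the groups did not overlap for 5 of the 9 genes, beside 64.9% of all tested genes. Thresholds were also taken from the study, an unadjusted p under 0.05 with a log2 fold change of 1 or more in size. The study names a t test, and the p used here is that of edgeR, so the shares are not those of the study. None of the 9 passed these thresholds, which 12% of all genes passed. The count was 0 with every other tool and setting as well, and also 0 with the other fold threshold that the study states (over 1.5 or under 0.5), which 20.2% of all genes passed together with an unadjusted p under 0.05. At an unadjusted p under 0.05 alone, 5 of the 9 passed in edgeR, beside 63.5% of all genes.

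The changes of the 9 genes were mostly small for this comparison. Their median absolute log2 fold change was 0.17, compared to 0.36 over all genes tested, and their median signed change was 0.08, compared to 0.01. PCYT1A changed more than 66.9% of all tested genes, CHKA more than 58.6% and PEMT more than 48.7%. For PCYT2 this share was 33.5% and for ETNK1 25.4%, while CHKB (15.3%), CEPT1 (12.6%), SLC44A1 (11.6%) and CHPT1 (7.58%) lay in the lowest part of the range.

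Ratios of 2 genes within a library do not depend on the scaling between libraries, and 4 pairs of related genes were compared in this way. The ratio of PCYT1A to PCYT2 counts, the choline over the ethanolamine cytidylyl transferase, was 2.30, 2.17 and 1.87 in shCtrl and 3.44, 3.78 and 3.602 in shGDPD5. The ratio was thus higher in every knockdown library, 1.71-fold on average (difference of 0.78 in log2 ratio). The ratio of CHKA to ETNK1, a choline kinase over an ethanolamine kinase, was 0.192, 0.200 and 0.197 in shCtrl and 0.238, 0.244 and 0.233 in shGDPD5, or 1.21-fold higher. For both pairs an exact two-sided permutation test gave p = 0.1, the smallest value that 3 against 3 libraries allow in this test (0.133 after Benjamini-Hochberg adjustment over the 4 pairs), so the permutation test cannot reach 0.05 here.

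The ratio of the choline kinases CHKA to CHKB was 2.40, 2.28 and 2.08 in shCtrl and 2.54, 2.74 and 3.49 in shGDPD5. It was higher in all knockdown libraries, 1.29-fold on average (0.36 in log2 ratio, exact permutation p = 0.1, adjusted 0.133), with shGDPD5 replicate 3 standing above the others. Without that library the difference was 0.23, and with the reads of CHKB-CPT1B added to CHKB it was 0.58. The ratio of CHPT1 to CEPT1 was 0.219, 0.210 and 0.220 in shCtrl and 0.215, 0.221 and 0.231 in shGDPD5. Here the groups overlapped, and the difference was 0.04 in log2 ratio with SDs of 0.04 and 0.05 (exact permutation p = 0.4, adjusted 0.4).

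**Figure D3:**
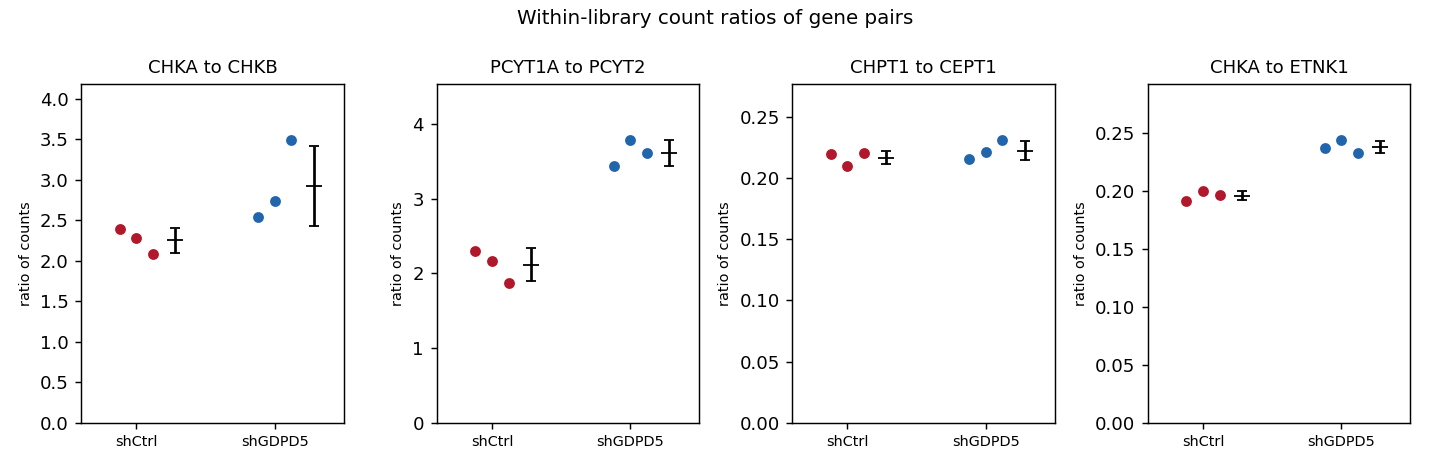
Within-library ratios of counts (vertical axes, each from 0) for 4 gene pairs in the 3 shCtrl and 3 shGDPD5 libraries, with the mean and SD of the ratios beside the points. The ratios of PCYT1A to PCYT2, CHKA to ETNK1 and CHKA to CHKB are higher in all shGDPD5 libraries, and the ratio of CHPT1 to CEPT1 overlaps between the groups.

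To compare levels between genes, CPM were divided by the length of the longest coding transcript. In shCtrl the order in mean CPM per kilobase was CEPT1 at 22.9, ETNK1 at 18.9, SLC44A1 at 12.1, CHKA at 10.5, PCYT1A at 9.60, PEMT at 8.31, CHKB at 7.21, CHPT1 at 5.58, PCYT2 at 4.96 and PCYT1B at 0. The ranges of the 3 libraries overlapped for the neighbours PCYT1A and PEMT and for CHPT1 and PCYT2, and not for the other neighbours in this order. In shGDPD5, CHKA (14.4 CPM per kilobase) and PCYT1A (14.05) stood above SLC44A1 (12.8). CEPT1 (21.7) and ETNK1 (21.3) overlapped there, as did CHKA and PCYT1A, and CHKB (7.73) and PEMT (6.51). The order depends on the length chosen: per kilobase of all annotated exons, CEPT1 fell to the fifth place in shCtrl at 6.14 and ETNK1 came first at 16.5.

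**Figure D4:**
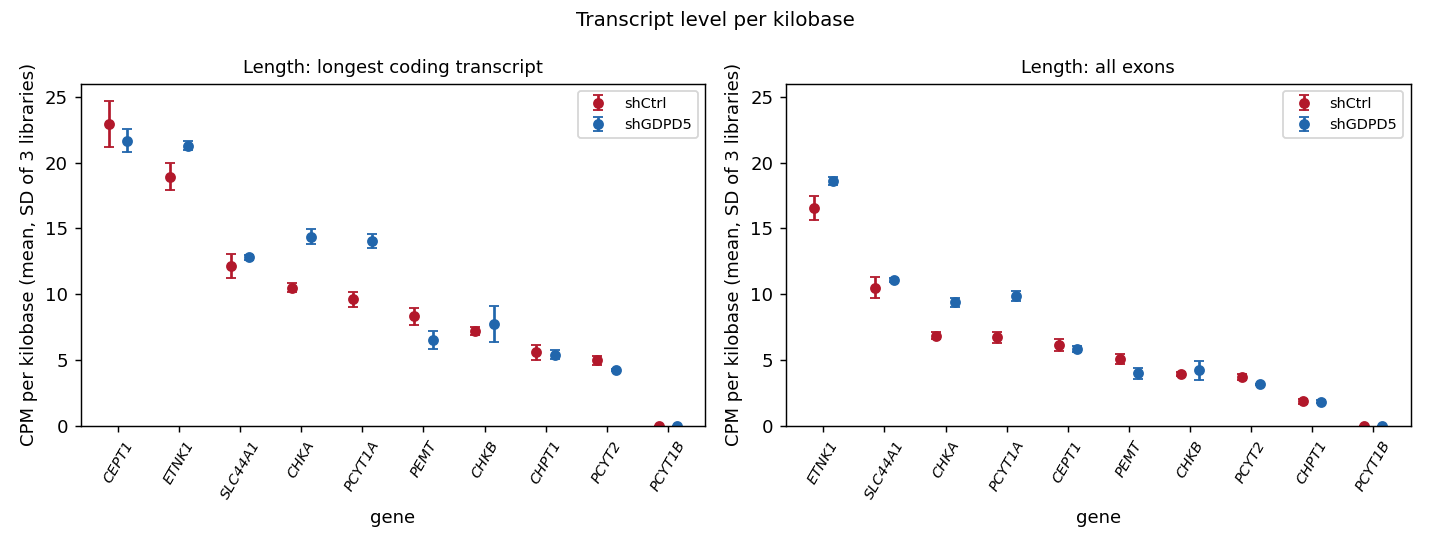
Level per kilobase (CPM per kilobase, vertical axis) of the 10 synthesis genes, shown as mean and SD of 3 libraries for shCtrl and shGDPD5, with the length of the longest coding transcript in one panel and of all exons in the other. CEPT1 leads with the first length and is in the fifth place with the other, and PCYT1B is at or near 0 with both.

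The genes around these enzymes were described from 9 further lists of 73 genes in all, of which 61 were tested. Among these neighbours 23 were higher, 20 were lower and 18 did not pass the edgeR test, so that 70.5% were called beside 59.7% of all genes, with a median log2 fold change of 0.05 beside 0.01 over all genes. The median absolute log2 fold change of the neighbours was 0.40, beside 0.36 over all genes. Several single neighbours changed more than any of the 9 synthesis genes tested, and the values below are log2 fold changes with edgeR adjusted p. In each list the genes with the smallest adjusted p come before the others that passed, which are named after their values were seen.

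Of 5 tested choline and ethanolamine transporters other than SLC44A1, 2 were higher, 1 lower and 2 did not pass, with a median of 0.21. SLC44A2, a choline transporter-like protein, rose by 0.68 (SE 0.05, edgeR adjusted p = 3.74e-07), from 52.4 ± 2.76 to 84.3 ± 1.51 CPM (SD, n = 3 in each group). FLVCR1, a transporter of choline and heme, rose by 0.57 (edgeR adjusted p = 8.05e-06). SLC44A3 fell by 0.25 (edgeR adjusted p = 0.0459), a call that was lost when any 1 library was left out (-0.28 to -0.22). SLC44A5 had a value of 0.21 (edgeR adjusted p = 0.170), 0.32 without shCtrl replicate 1 (edgeR adjusted p = 0.0315) and 0.093 without shCtrl replicate 2 (edgeR adjusted p = 0.558).

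The supply of CTP and diacylglycerol and the remaining Kennedy pathway enzymes made up a list of 10 tested genes, 4 higher, 2 lower and 4 not passing (median 0.16). CTPS1, which makes the CTP that the cytidylyl transferases use, rose by 0.57 (edgeR adjusted p = 1.50e-06), from 58.6 ± 1.84 to 86.9 ± 3.39 CPM (SD, n = 3 in each group). The phosphatidate phosphatases, which make diacylglycerol, moved in both directions, as LPIN1 rose by 0.68 (edgeR adjusted p = 2.03e-05) and LPIN2 fell by 0.85 (edgeR adjusted p = 6.90e-07). Among the others PLPP3 fell by 0.89 (edgeR adjusted p = 0.000218). LPIN3 rose by 0.38 (edgeR adjusted p = 0.0104), a call lost without shGDPD5 replicate 1 (0.30), and PLPP2 rose by 0.20 (edgeR adjusted p = 0.0398), a call that held only without shCtrl replicate 3 among the libraries left out and stood at 0.11 without shCtrl replicate 1. SELENOI, the ethanolaminephosphotransferase, had a value of 0.14 (edgeR adjusted p = 0.0569), 0.20 without shCtrl replicate 1 (edgeR adjusted p = 0.000194) and 0.089 without shCtrl replicate 3 (edgeR adjusted p = 0.242). SELENOI also passed in edgeR with upper quartile scaling factors (adjusted p = 0.0359) and with at least 10 counts in every library (adjusted p = 0.0439). In the test of each gene alone the calls of LPIN3 (adjusted p = 0.0923) and PLPP2 (adjusted p = 0.169) were lost.

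The phosphatidylserine route draws on the products of these enzymes by base exchange and returns phosphatidylethanolamine in mitochondria. Its 3 genes were all higher, beside 29.7% of all genes, with a median of 0.57. The phosphatidylserine synthases PTDSS1 and PTDSS2, which exchange the base of phosphatidylcholine and phosphatidylethanolamine for serine, rose by 0.57 (edgeR adjusted p = 1.64e-06) and 0.59 (edgeR adjusted p = 0.000578). PISD, the mitochondrial phosphatidylserine decarboxylase, rose by 0.25 (edgeR adjusted p = 0.0132), and the call was lost in the test of each gene alone (adjusted p = 0.0885).

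Of the 8 lysophospholipid acyltransferases, which reacylate lysophospholipids, 3 were higher, 2 lower and 3 did not pass (median 0.02). LPCAT1 and LPCAT3 each rose by 0.49 (edgeR adjusted p = 6.65e-06 and 1.85e-05), and LPGAT1 fell by 0.66 (edgeR adjusted p = 2.40e-06). The gene EMG1 on the opposite strand covers 65.6% of the LPCAT3 exon bases. MBOAT2 fell by 0.35 (edgeR adjusted p = 0.00372), and MBOAT7, which acts on lysophosphatidylinositol, rose by 0.27 (edgeR adjusted p = 0.0162), a call lost without shCtrl replicate 1 and without shGDPD5 replicate 1 or 3 (0.18 to 0.25) and in the test of each gene alone (adjusted p = 0.136). LPCAT4 had a value of -0.23 (edgeR adjusted p = 0.0533), -0.34 without shCtrl replicate 1 (edgeR adjusted p = 0.00168) and -0.13 without shCtrl replicate 3 (edgeR adjusted p = 0.246). LPCAT4 also passed in edgeR with RLE scaling factors (adjusted p = 0.0456), with no filter on low counts (adjusted p = 0.0106) and with at least 10 counts in every library (adjusted p = 0.0491).

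The genes that break these lipids down or release their head groups also moved in both directions. Among 12 phospholipid hydrolases 5 were higher, 4 lower and 3 did not pass (median 0.15). The phospholipases D, which cleave choline from phosphatidylcholine, parted, as PLD2 rose by 0.72 (edgeR adjusted p = 1.82e-06) and PLD1 fell by 0.77 (edgeR adjusted p = 2.35e-05). LYPLA1, a lysophospholipase and protein thioesterase, fell by 0.45 (edgeR adjusted p = 1.89e-05), and NAPEPLD had a value of 0.12 (edgeR adjusted p = 0.179). Of the phospholipases A2 and lysophospholipases, LYPLA2 rose by 0.41 (edgeR adjusted p = 0.00155), PLA2G6 by 0.55 (edgeR adjusted p = 0.00313) and PLA2G15 by 0.52 (edgeR adjusted p = 0.00433), while PLA2G4C fell by 1.18 (edgeR adjusted p = 0.000717) from at most 43 counts in a library. PNPLA6, which hydrolyses phosphatidylcholine and lysophosphatidylcholine, rose by 0.25 (edgeR adjusted p = 0.0379), and the call was lost without shCtrl replicate 1 or 2 and without shGDPD5 replicate 1 or 3 (0.16 to 0.24). PLA2G4B fell by 0.61 (edgeR adjusted p = 0.0308), a call lost without shCtrl replicate 1 or 3 and without shGDPD5 replicate 1 or 2 (-0.61 to -0.48), and it shares 75.6% of its exon bases with the read-through gene JMJD7-PLA2G4B. The PLA2G4B call was also lost with DESeq2 (adjusted p = 0.110), and in the test of each gene alone the calls of PLA2G4B (adjusted p = 0.0849), LYPLA2 (adjusted p = 0.0613), PLA2G6 (adjusted p = 0.0569) and PNPLA6 (adjusted p = 0.215) were lost.

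Of 5 tested glycerophosphodiesterases 1 was higher, 3 were lower and 1 did not pass (median -0.63), and the list includes the targeted gene. GPCPD1, which cleaves glycerophosphocholine, showed the largest fall of this list, by 1.80 (SE 0.08, edgeR adjusted p = 1.27e-09), from 47.3 ± 3.87 to 13.6 ± 0.256 CPM (SD, n = 3 in each group). GDPD1, which acts on lysophospholipids, fell by 0.63 (edgeR adjusted p = 9.20e-06). GDE1 had a value of 0.05 (edgeR adjusted p = 0.388). The gene that was higher, GDPD3, rose by 1.17 (SE 0.28, edgeR adjusted p = 0.00341, 9 to 32 counts in a library).

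Choline that is oxidised rather than phosphorylated can feed methyl groups to S-adenosylmethionine, the donor that PEMT uses. Of 6 tested genes of that list 3 were higher and 3 lower (median 0.13). BHMT, BHMT2 and GNMT of the list were not tested, with at most 1, 3 and 3 counts in a library. Whether choline supplies methyl groups in these cells was not tested. ALDH7A1, which oxidises betaine aldehyde, rose by 0.73 (edgeR adjusted p = 9.89e-08). AHCY, which removes the product of methyl transfer, rose by 0.54 (edgeR adjusted p = 5.81e-06), and MAT2B, a subunit of the S-adenosylmethionine synthase, rose by 0.49 (edgeR adjusted p = 8.93e-06). The catalytic subunits of that synthase fell, MAT2A by 0.25 (edgeR adjusted p = 0.000453) and MAT1A by 1.11 (edgeR adjusted p = 0.00143), the latter with 14 to 45 counts in a library. CHDH, the choline dehydrogenase, fell by 0.24 (edgeR adjusted p = 0.0276), and the call was lost with DESeq2 (adjusted p = 0.0884), without shCtrl replicate 2 or 3 and without shGDPD5 replicate 1 (-0.25 to -0.20).

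Sphingomyelin synthesis uses phosphatidylcholine as the donor of phosphocholine. Of 9 tested genes of sphingomyelin and phosphobase metabolism 1 was higher, 3 lower and 5 did not pass (median -0.11). The sphingomyelin synthase SGMS1 fell by 0.63 (edgeR adjusted p = 9.28e-06), and the related SAMD8 had a value of -0.11 (edgeR adjusted p = 0.112). The neutral sphingomyelinases parted, as SMPD4 rose by 0.93 (edgeR adjusted p = 1.17e-07) and SMPD3 fell by 1.99 (edgeR adjusted p = 2.38e-06), the latter from 5.59 ± 0.516 to 1.41 ± 0.352 CPM (SD, n = 3 in each group). SGPL1, the sphingosine 1-phosphate lyase that yields phosphoethanolamine, fell by 0.32 (edgeR adjusted p = 3.79e-05).

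Among the 3 phosphatidylcholine transfer proteins 1 was higher and 2 were lower (median -0.25). STARD7, which carries phosphatidylcholine to mitochondria, rose by 0.40 (edgeR adjusted p = 8.22e-06), and PCTP fell by 0.40 (edgeR adjusted p = 0.000414). STARD10 fell by 0.25 (edgeR adjusted p = 0.0266). That call was lost without shCtrl replicate 2 or 3 and without shGDPD5 replicate 1 or 2 (edgeR adjusted p from 0.0616 to 0.113), and with the per-gene test (adjusted p = 0.139). ARAP1, a gene on the same strand, shares 19.5% of the STARD10 exon bases.

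**Figure D5:**
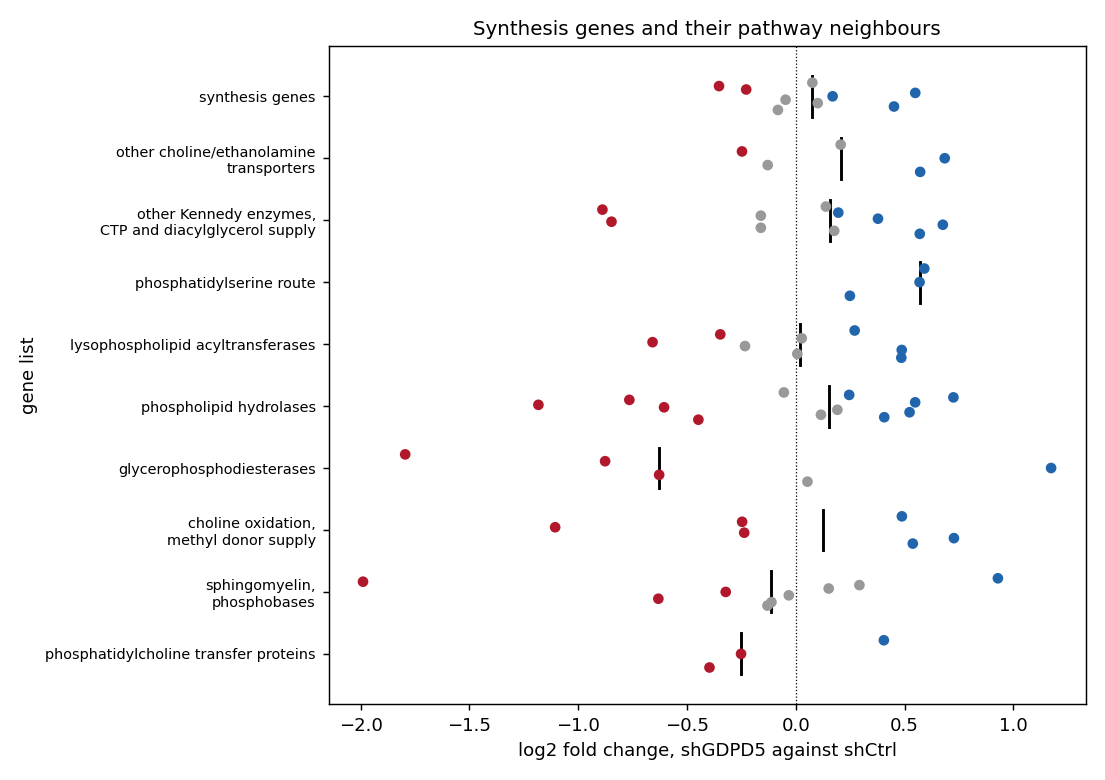
Log2 fold changes (horizontal axis, shGDPD5 against shCtrl) of the tested genes of each list, with the synthesis genes above the 9 lists of pathway neighbours (blue, risen and red, fallen at an adjusted p under 0.05, grey, not passed, with black bars at list medians). The 9 synthesis genes tested lie between -0.35 and 0.55. The 61 neighbours tested reach down to -1.99 (SMPD3) and up to 1.17 (GDPD3), a range that widens with the number of genes. SMPD3 had 19 to 104 counts in a library and GDPD3 9 to 32.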

How the data were processed

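RNA-seq of 6 HCT116 libraries (3 shCtrl, 3 shGDPD5, grouped by the sample labels) was analysed. The authors deposited estimated counts per gene, which need not be whole. A company did the sequencing, per the study. Not given in the sources used here are the aligner, counter, strand setting and genome build, so reads of overlapping genes may be shared. The counts were rounded to whole numbers, filtered with filterByExpr (minimum count 10), scaled by TMM and tested over 16755 genes with the quasi-likelihood test of edgeR 4.0.16 (R 4.3.3) and Benjamini-Hochberg adjustment. Intervals are 95% intervals of that fit. Within-library ratios used an exact permutation test with 0.5 added to each count.

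Library totals of 16715522 to 18510728 counts limit precision for genes of few counts, and libraries within a group scattered beyond sampling noise (chi-square per degree of freedom 1.66 to 7.10, highest with shCtrl replicate 1). Gene positions are from GENCODE release 29 on GRCh38 and promoter windows from RefSeq GRCh38.p14. Alternatives tried were DESeq2 1.42.0, voom of limma 3.58.1, a test of each gene alone on log2(CPM + 1), RLE or upper quartile factors, no filter, 10 counts in every library, a replicate block and each library left out, and, chosen after seeing the data, mitochondrial genes left out, CHKB summed with CHKB-CPT1B and a fold over 1.5 or under 0.5.

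The 10 genes and the gene lists were chosen with earlier results of these data known. Of the neighbour lists, up to 3 genes with the smallest adjusted p under 0.05 and the most abundant gene that did not pass are named, and the other genes that passed were named after their values were seen. ETNK2, which did not pass, is named as a further ethanolamine kinase, also after its value was seen. A pair of PCYT1A with PCYT1B was also planned and was not tested, since PCYT1B was at or under 3 counts. The code was tested on simulated data.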

Additional observations from a re-analysis of the deposited data

How the results depend on the processing

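CHKA and PCYT1A were higher and past the threshold in all 15 alternatives. The count of lower genes, 2 in the report, was 1 with DESeq2 and 1 with a test of each gene alone on log2(CPM + 1) values, where PEMT was lost, and 0 to 2 when each library was left out. The count of higher genes, 3 in the report, was 2 to 4 when each library was left out. The direction turned for CHPT1 without shCtrl replicate 1 (0.011, in a range of -0.13 to 0.011 over the libraries left out) and for CHKB when summed with CHKB-CPT1B (-0.12), and neither value passed the test. The cause was not tested. Over all genes, DESeq2 called 8711 and the per-gene test 8376 of the 16755 genes, compared to 10006. Another scaling moved the median of all genes by at most 0.02 on the log2 scale.

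Libraries with the same replicate number did not deviate together from their group means (correlations of -0.07, -0.05 and -0.04). These values cannot tell whether libraries of the same number were prepared together. With the replicate number as a block, 3 of the 10 genes were higher and 2 lower, as without it, and 9645 genes were called in all. The block gave 0.45 for CHKA, 0.55 for PCYT1A and -0.87 for GDPD5, and SLC44A3 lost its call (adjusted p = 0.0713, edgeR).

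Depth limits PCYT1B, with at most 1 count in a library, and PEMT, with 108 to 165 counts. Levels per kilobase moved with the transcript length chosen for all 9 tested genes.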
